A study of Mus musculus with 4 samples.

Results

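Abcb1a, Abcb1b and Abcg2 encode multidrug efflux pumps, and their levels are described here on 4 Affymetrix arrays of mouse J1 embryonic stem (ES) cells. The members were the probe sets whose platform annotation names one of these genes, 5 probe sets of 3 genes, out of 45141 probe sets and 17097 named genes on the array. Abcb1a and Abcb1b had a pair of probe sets each and Abcg2 had 1. The genes were chosen by their levels on these same 4 arrays, with the differences between conditions in view, so every level and difference below is a description and carries no test.

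The arrays crossed 2 factors. The first group carried a double knockdown of Tet1 and Tet2 by short hairpins together with overexpressed PRDM14 (Tet1/Tet2 KD + PRDM14), the second the knockdown alone (Tet1/Tet2 KD), the third a scramble control with overexpressed PRDM14 (Scramble + PRDM14) and the fourth the scramble control alone (Scramble). Per the labels, all 4 cultures came from iP14 cells kept with or without doxycycline, and all were grown without feeders in medium with serum and LIF. The sample descriptions call the Scramble cells wild type although they belong to the same line, and whether each line was 1 clone is not given in the sources used here. Each condition had 1 array, so the spread within a condition is unknown and precision is limited by how few arrays there were.

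ATP-binding cassette (ABC) transporters spend ATP to move molecules across membranes, and those of the efflux kind push drugs, dyes and other foreign compounds out of the cell. Abcb1a and Abcb1b are neighbouring mouse genes that together do the work of human ABCB1, and both encode P-glycoprotein, a pump known from the intestine, the blood-brain barrier and drug-resistant tumours. Abcg2 encodes the breast cancer resistance protein, which exports drugs, urate and porphyrins and gives stem cells of several tissues their low staining with a Hoechst dye, the so-called side population. TET1 and TET2 oxidise methylated cytosine, mostly in CpG dinucleotides, and PRDM14 is a nuclear protein made by early germ cells and by pluripotent cells. The series asked which part the TET enzymes have in the control of transcription by PRDM14.

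The stretches just before annotated transcription starts of the members differ in their content of CpG, where the TET enzymes mostly act. For Abcg2 they also differ between its own starts. The windows below hold the 250 bases upstream of a RefSeq gene start in build GRCm38.p6, written 5′ to 3′, with every CpG in capitals.
Abcb1a, chr5:8566841-8567090, plus strand: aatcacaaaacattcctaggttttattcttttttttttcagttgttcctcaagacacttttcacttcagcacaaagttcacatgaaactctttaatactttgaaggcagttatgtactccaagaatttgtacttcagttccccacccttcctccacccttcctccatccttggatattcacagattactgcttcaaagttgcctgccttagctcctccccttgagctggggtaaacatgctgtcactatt
Abcb1b, chr5:8797897-8798146, plus strand: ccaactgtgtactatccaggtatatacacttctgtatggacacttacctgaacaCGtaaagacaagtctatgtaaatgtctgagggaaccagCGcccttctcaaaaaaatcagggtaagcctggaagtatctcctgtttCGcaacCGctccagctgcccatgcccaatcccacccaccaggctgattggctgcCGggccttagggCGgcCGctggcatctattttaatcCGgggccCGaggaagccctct
Abcg2, chr6:58640296-58640545, plus strand: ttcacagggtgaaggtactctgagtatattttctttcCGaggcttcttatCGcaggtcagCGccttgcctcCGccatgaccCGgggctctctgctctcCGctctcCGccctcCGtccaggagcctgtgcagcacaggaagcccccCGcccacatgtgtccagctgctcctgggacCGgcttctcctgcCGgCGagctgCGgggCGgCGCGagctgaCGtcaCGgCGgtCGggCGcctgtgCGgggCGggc
The Abcb1a window held 0 CpG and 40.4% G or C, the Abcb1b window 9 CpG and 52.8%, and the Abcg2 window shown 23 CpG and 67.6%. Among all 32536 distinct windows of this kind the median was 6 CpG and 52.4% G or C, and 7.8% of windows had no CpG. The RefSeq table gave 3 starts for Abcg2, of which the richest in CpG is printed, and the other windows held 3 and 10 CpG. Which start the cells used was not measured, and neither was methylation. For Abcb1a the table gives the outermost start of the gene, which lies in a stretch that overlaps the neighbouring gene Rundc3b, so that window need not belong to the transcript that was measured.

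Several short motifs were searched on both strands of these 5 windows. CCAAT, the box bound by NF-Y, was found on each strand of the Abcb1b window, 87 to 83 and 66 to 62 bases before the start, and in none of the others, while 33.8% of all windows held it. GGGCGG, a GC box, was found once in the Abcb1b window, 48 to 43 bases before the start, in 2 of the 3 Abcg2 windows and in 33.0% of all windows. TGACGTCA, the cyclic AMP response element, lay 37 to 30 bases before the Abcg2 start shown, and 1.56% of all windows held it. GGTCTCTAA, the motif reported for PRDM14, and the motifs GCGTG, the core of the aryl hydrocarbon receptor site, and TATAAA were found in none of the 5, against 0.24%, 28.3% and 12.3% of all windows. No match found overlapped another, and neither a match nor its absence says whether a factor binds.

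Before the pumps, the labels and arrays were checked. The brightest Tet2 probe set read 8.15 on the Tet1/Tet2 KD + PRDM14 array, 7.50 on the Tet1/Tet2 KD array, 9.33 on the Scramble + PRDM14 array and 8.46 on the Scramble array. Tet2 was thus lower on each knockdown array than on its scramble counterpart, while Tet1 was not analysed here. Prdm14 read from 4.35 to 4.83 on all 4 arrays, below the expression filter of 5.40 (the median signal over every named probe set and array), and so gave no check of the PRDM14 labels. The Scramble array stood furthest from the rest, with 49 genes that differed 2-fold or more from each of the 3 remaining arrays, and 12 such genes stood out on the Tet1/Tet2 KD + PRDM14 array, 7 on the Tet1/Tet2 KD array and 27 on the Scramble + PRDM14 array. Results that contain that array are therefore given beside those that do not.

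Abcb1a and Abcb1b shared a pattern over the 4 arrays that Abcg2 lacked. The P-glycoprotein genes were about 2-fold higher with PRDM14 in scramble cells and lower with PRDM14 in knockdown cells, and their highest level was on the Scramble + PRDM14 array. Abcg2 read nearly alike on all 4 arrays. All 5 probe sets lay above the filter on every array, so no member was lost to it.

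The brighter Abcb1a probe set, 1419759, read 6.82 on the Tet1/Tet2 KD + PRDM14 array, 7.41 on the Tet1/Tet2 KD array, 7.999 on the Scramble + PRDM14 array and 6.97 on the Scramble array. The dimmer one, 1419758, read 5.54, 6.53, 7.05 and 5.76 in the same order of arrays. On both the Scramble + PRDM14 array was highest, the Tet1/Tet2 KD array came next, and the Scramble and Tet1/Tet2 KD + PRDM14 arrays were lowest. Both probe sets were designed on the same sequence record, so they are not separate evidence of 2 transcripts.

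The brighter Abcb1b probe set, 1418872, read 7.62 on the Tet1/Tet2 KD + PRDM14 array, 8.11 on the Tet1/Tet2 KD array, 8.96 on the Scramble + PRDM14 array and 7.68 on the Scramble array. The order of the arrays was that of Abcb1a. The other Abcb1b probe set, 1446701, read 5.92, 5.88, 5.90 and 5.87 in the same order of arrays, a range of 0.05. It derives from an expressed sequence tag, whereas 1418872 derives from the RefSeq transcript of the gene, and the files do not say which part of the gene each covers. Abcb1b is accordingly described below by 1418872, and the flat probe set is given beside it.

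Abcg2, probe set 1422906, read 8.31 on the Tet1/Tet2 KD + PRDM14 array, 8.41 on the Tet1/Tet2 KD array, 8.15 on the Scramble + PRDM14 array and 8.27 on the Scramble array. Its whole range of 0.26 was that of the median gene, 0.26, and 50.2% of the 10519 genes above the filter had a smaller one. The ranges of Abcb1a and Abcb1b, 1.18 and 1.34, were larger than those of 97.6% and 98.4% of genes. The highest Abcg2 array was the Tet1/Tet2 KD array and the lowest the Scramble + PRDM14 array, which was where the P-glycoprotein genes were highest.

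**Figure D1:**
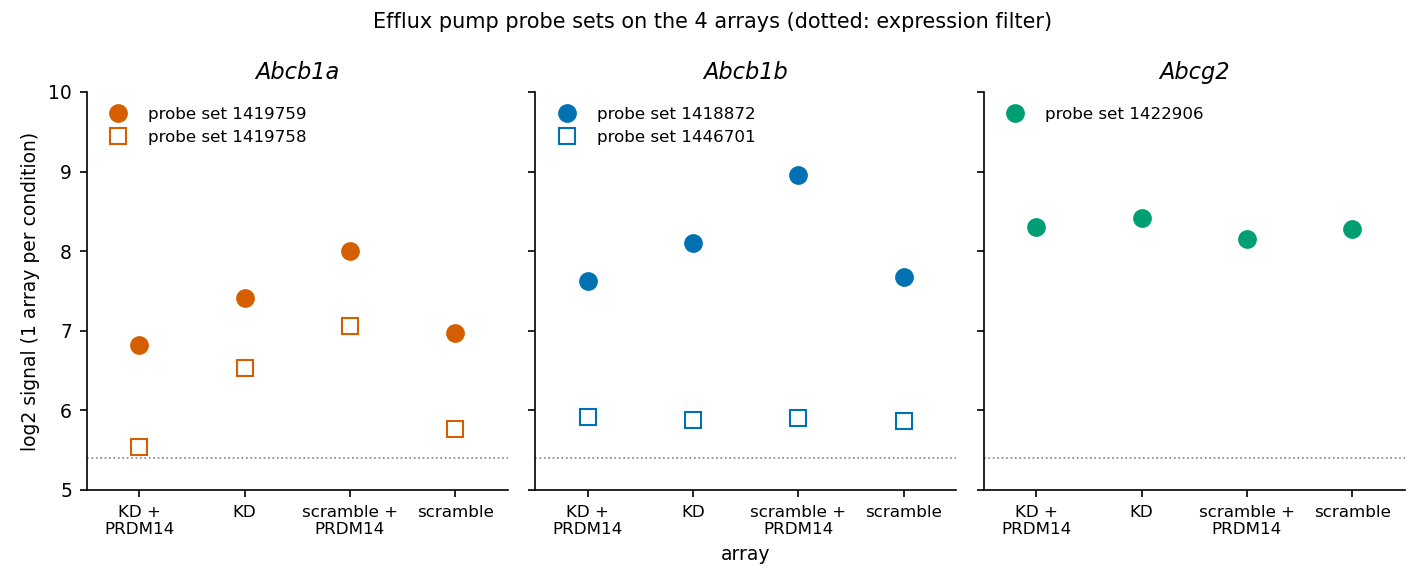
Log2 signal (y axis) of the 5 probe sets of Abcb1a, Abcb1b and Abcg2 on the 4 arrays (x axis), 1 point per array and no error bar since each condition had 1 array; filled circles are the brighter probe set of a gene, open squares the dimmer one, and the dotted line is the filter at 5.40. Both Abcb1a probe sets and Abcb1b 1418872 peak on the Scramble + PRDM14 array, while Abcb1b 1446701 and Abcg2 stay within 0.05 and 0.26.

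No probe set of the 5 is annotated to a further gene. Whether probes of Abcb1a also bind Abcb1b transcripts, which are close in sequence, was not tested, since probe sequences were not used here. Abcb4, their neighbour and closest relative, which moves phospholipid into bile, read 6.23, 6.12, 6.17 and 6.25 on the Tet1/Tet2 KD + PRDM14, Tet1/Tet2 KD, Scramble + PRDM14 and Scramble arrays. It was nearly level, with pairwise differences between −0.13 and 0.11.

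In scramble cells, the PRDM14 difference of Abcb1a was 1.03 on the log2 scale, 2.04-fold, on the brighter probe set and 1.30, 2.45-fold, on the dimmer one. Abcb1b differed by 1.28, 2.42-fold, and by 0.034 on its flat probe set. Abcg2 differed by −0.12, 0.92-fold. With a size rule of at least 2-fold and a higher array at or above the filter, 2 of the 3 genes were called higher, where 1.09% of all 10366 genes tested were called higher. The members were chosen with this contrast in view, so nothing is read from that share. Abcb1a passed 2-fold narrowly and ranked 110 from the top, and Abcb1b ranked 65. With the mean of its probe sets, Abcb1b was at 0.66 and no longer passed. For orientation, differences between probe sets of 1 gene had a pooled SD of 0.22 in this comparison, which covers neither cultures nor arrays. The comparison rests on the Scramble array, and no value without it exists.

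In knockdown cells the sign was the opposite for the P-glycoprotein genes. Abcb1a differed by −0.59 and, on the dimmer probe set, by −0.99, and Abcb1b by −0.49, with 0.034 on the flat probe set. Abcg2 differed by −0.10. None of the 3 was called, while 0.272% of 10311 genes were called lower. Abcb1a and Abcb1b ranked 139 and 200 from the lowest, and the pooled SD between probe sets was 0.15. This comparison does not contain the Scramble array.

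The difference between these differences, knockdown minus scramble, was −1.61 for Abcb1a, −2.29 on its dimmer probe set, −1.76 for Abcb1b and 0.01 for Abcg2. The 2 P-glycoprotein genes passed 2-fold, as did 1.29% of all 10519 genes in the lower direction, and they ranked 30 and 22 from the lowest. On the flat Abcb1b probe set the value was 0.00, and with the mean of its probe sets Abcb1b was at −0.88, short of 2-fold. Genes higher with PRDM14 in scramble cells were not generally lower with it in knockdown cells. Of the 113 genes at least 2-fold higher in scramble, 34 (30.1%) were below 0 in knockdown, against 50.5% of all genes tested in scramble. A value at or below that of Abcb1a was found for 7 of the 113, Abcb1a itself included.

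**Figure D2:**
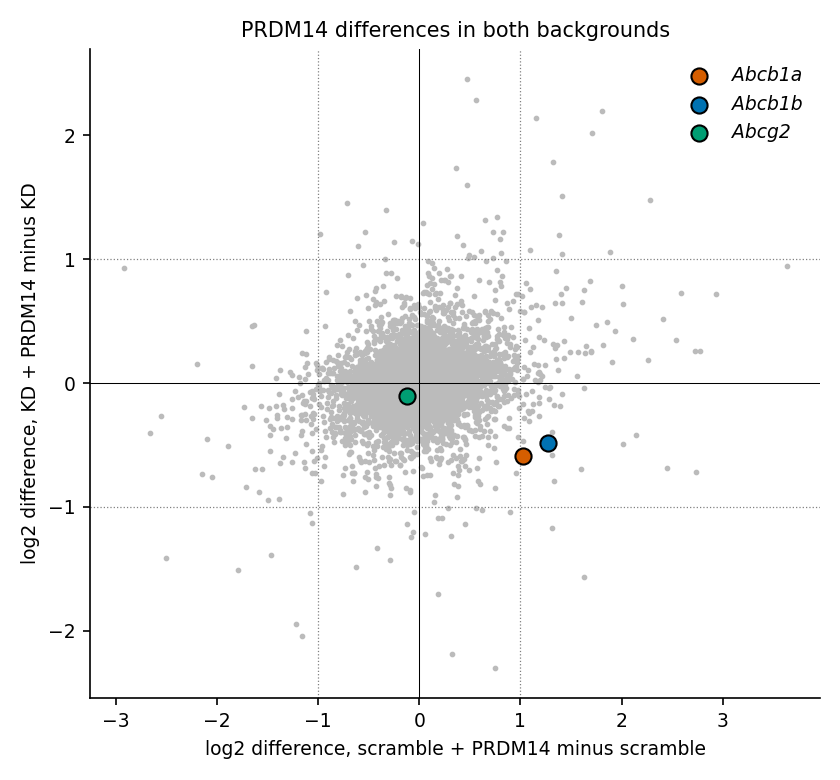
Log2 difference with PRDM14 in scramble cells (x axis, Scramble + PRDM14 minus Scramble) and in knockdown cells (y axis, Tet1/Tet2 KD + PRDM14 minus Tet1/Tet2 KD) for the 10519 genes above the filter on at least 1 array (grey points), with the pumps in colour and dotted lines at 2-fold. Abcb1a (1.03 and −0.59) and Abcb1b (1.28 and −0.49) sit at the lower right, and Abcg2 (−0.12 and −0.10) lies near the origin.

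The knockdown differences, read from the same 4 arrays, were likewise opposite in sign for the P-glycoprotein genes without and with PRDM14. Without PRDM14, the knockdown minus scramble difference was 0.44 for Abcb1a (0.77 on the dimmer probe set), 0.43 for Abcb1b (0.015 on the flat one) and 0.14 for Abcg2. None was called, where 0.618% of 10351 genes were called higher. With PRDM14, Abcb1a differed by −1.18, 2.26-fold lower in the knockdown, and by −1.52 on the dimmer probe set, 2.86-fold lower. Abcb1b differed by −1.34, 2.52-fold lower, and by 0.015 on the flat probe set, and Abcg2 by 0.15. The P-glycoprotein genes were thus 2 of the 49 genes called lower out of 10322, or 0.475%, and ranked 29 and 18 from the lowest. With the mean of its probe sets Abcb1b was at −0.66 and was not called. The comparison with PRDM14 leaves out the Scramble array, and the pooled SDs between probe sets were 0.21 without and 0.16 with PRDM14.

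The order of the 4 levels was the same on both Abcb1a probe sets and on Abcb1b 1418872, with Scramble + PRDM14 above Tet1/Tet2 KD, then Scramble, then Tet1/Tet2 KD + PRDM14. That order was found in 318 of 10519 genes, 3.02%. The last step was small, 0.15 and 0.22 for Abcb1a and 0.06 for Abcb1b. The pooled SDs between probe sets were 0.15 to 0.22 in the 4 comparisons, none of which is this step. They cover neither cultures nor arrays, so whether the order of these lowest arrays would hold again is unknown. The steps from the Scramble + PRDM14 array to the Tet1/Tet2 KD array were 0.59, 0.53 and 0.85, and those from the Tet1/Tet2 KD array to the Scramble array 0.44, 0.77 and 0.43. For Abcg2 the steps in its own order, Tet1/Tet2 KD, Tet1/Tet2 KD + PRDM14, Scramble and Scramble + PRDM14, were 0.10, 0.03 and 0.12, all under those SDs.

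All 6 measured ES cell markers, Pou5f1, Nanog, Sox2, Zfp42, Esrrb and Dppa5a, lay above the filter, from 7.82 to 12.79. Nanog, singled out after its values were seen, read 9.56 on the Tet1/Tet2 KD + PRDM14 array, 9.95 on the Tet1/Tet2 KD array, 10.20 on the Scramble + PRDM14 array and 9.68 on the Scramble array, the same order of arrays as for the P-glycoprotein genes. Its PRDM14 differences were 0.52 in scramble and −0.39 in knockdown cells, and its part in their levels was not tested. The other 5 did not have that order. Esrrb differed by −0.51 and −0.49, Sox2 by −0.03 and 0.14, and Dppa5a by −0.09 and −0.07 in these comparisons, while Pou5f1 differed by 0.21 and −0.01 and Zfp42 by 0.05 and −0.06. Among markers of other tissues known for these pumps, most endothelial ones reached the filter and the liver or intestine ones did not. Of 5 endothelial markers Cdh5 and Vwf were below the filter on all arrays and Tek, Kdr and Cldn5 reached it. Signals of all 5 were summed before log2 was taken, genes below the filter included. That gave 8.17 on the Tet1/Tet2 KD + PRDM14 array, 7.96 on Tet1/Tet2 KD, 8.10 on Scramble + PRDM14 and 7.91 on Scramble. Tek, the angiopoietin receptor gene, was called higher with PRDM14 in knockdown cells (1.04), as were 0.359% of all genes, and differed by 0.49 in scramble cells. On the Tet1/Tet2 KD array Tek read 5.48, just above the filter. Kdr and Cldn5 differed by −0.09 and −0.03 in knockdown cells and by 0.06 and 0.13 in scramble cells. None of 4 liver or intestine markers (Alb, Afp, Vil1, Cdx1) reached the filter. Of the remaining lists, 1 of 6 fibroblast, 1 of 4 haematopoietic, 2 of 5 primitive endoderm and 1 of 4 trophectoderm markers did. The log2 of each list's summed signal, again with genes below the filter, ranged from 7.01 to 7.10, 7.49 to 7.55, 7.51 to 7.58 and 6.98 to 7.28 over the 4 arrays. The highest trophectoderm value was on the Tet1/Tet2 KD + PRDM14 array. The part of these cells in the pump levels was not tested, and in bulk RNA fewer cells of a type and less RNA per cell cannot be told apart.

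Genes with the most similar pattern were found by the root mean square distance of mean-centred log2 levels over the 4 arrays. Nearest to Abcb1b was Lgals3, which encodes the sugar-binding protein galectin-3, at 0.02, followed by Plekhh1 and the growth factor gene Pdgfc, both at 0.09. Lgals3 read 8.77 on the Tet1/Tet2 KD + PRDM14 array, 9.29 on the Tet1/Tet2 KD array, 10.10 on the Scramble + PRDM14 array and 8.86 on the Scramble array. Nearest to Abcb1a were Pdgfc at 0.06, Pttg1, which encodes the chromatid separation inhibitor securin, at 0.09, and Lgals3 at 0.09. Abcb1a and Abcb1b had rank 4 in each other's order, at 0.10, so each lay nearer to 3 other genes than to its relative.

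Further probe sets of Pdgfc, Pttg1 and Plekhh1 mostly kept the signs of the pattern, and Lgals3 had no further probe set. A second Pdgfc probe set differed by 0.80 with PRDM14 in scramble and −0.34 in knockdown cells. For Pttg1, one further probe set gave 1.31 and −0.67, but another gave 0.03 and −0.12. Those of Plekhh1 gave 0.93 and −0.23 and, near the filter, 0.51 and −0.28. Both Plekhh1 probe sets were above the filter on the Scramble + PRDM14 array only. The nearest genes to Abcg2 were Mtap, an enzyme of methionine salvage, Stard3, a lipid transfer protein, and Dusp2, a MAP kinase phosphatase, all at 0.01. With a range near that of the median gene, closeness to Abcg2 says little more than that their brightest probe sets also read nearly alike on the 4 arrays. Further Mtap probe sets differed by 0.17, 0.50 and 0.51 for the knockdown without PRDM14, against 0.14 on the brightest.

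**Figure D3:**
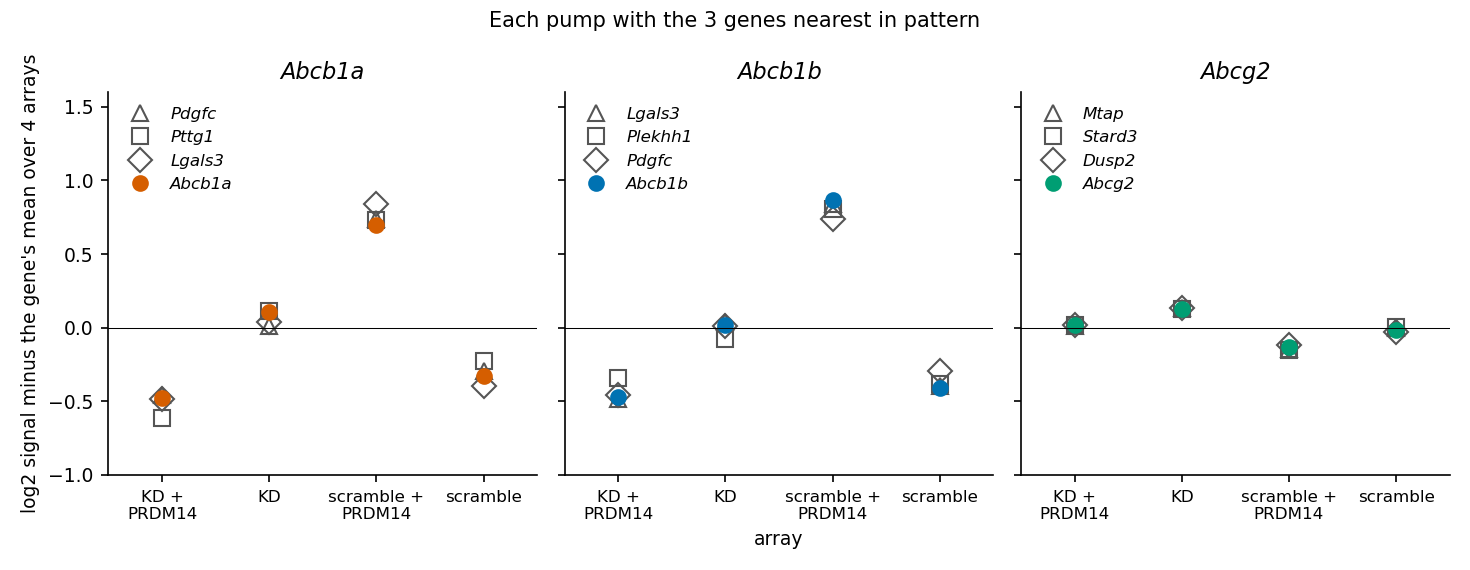
Log2 signal minus the gene's mean over the 4 arrays (y axis) on each array (x axis), 1 array per condition, for each pump (filled circle) and the 3 genes nearest to it in pattern (open symbols). Lgals3 lies within a distance of 0.02 of Abcb1b, and the panel of Abcg2 is nearly flat.

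Of the genes measured around Abcb1a and Abcb1b, Rundc3b shared their order of arrays and the others did not. Among the protein-coding genes of RefSeq, Abcb1a, Abcb1b and Abcb4 follow one another, with Slc25a40, a mitochondrial carrier, and Dbf4, an activator of DNA replication, before them and Crot, a peroxisomal carnitine transferase, after. With PRDM14 in scramble cells these 3 neighbours differed by −0.21, −0.13 and 0.01, and in knockdown cells by 0.34, −0.06 and 0.10. Rundc3b, which overlaps the long Abcb1a gene model and was looked up after the other values were seen, read 5.85 on the Tet1/Tet2 KD + PRDM14 array, 6.31 on the Tet1/Tet2 KD array, 6.50 on the Scramble + PRDM14 array and 6.30 on the Scramble array. Its PRDM14 differences were 0.19 in scramble and −0.46 in knockdown cells, and its knockdown difference with PRDM14 was −0.65. Its Tet1/Tet2 KD and Scramble levels differed by 0.0068. The pseudogene Gm15610, the other near gene on the side of Crot, was not analysed here. Around Abcg2 3 of the 4 nearest genes were noncoding RNAs, not analysed here, and the other was Herc3, a ubiquitin ligase gene, which differed by −0.80 in scramble and 0.14 in knockdown cells.

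Across the rest of the ABC family, 39 genes had a probe set and 21 reached the filter in each comparison. Of these, 0 were called in any of the 4 pairwise comparisons, against backgrounds of 2.09%, 0.630%, 1.06% and 1.10% for either direction (PRDM14 in scramble, PRDM14 in knockdown, knockdown without and with PRDM14). Their medians were 0.027, −0.0038, 0.0026 and 0.060, beside 0.0020, −0.00095, 0.0079 and 0.0029 over all genes tested. The ABC genes called in a pairwise comparison were thus Abcb1a and Abcb1b, which is a description, since the members were chosen with these differences in view.

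Of 11 other drug exporters listed, 5 reached the filter, and the pair with the largest differences, Abcc4 and Abcc1, ran opposite in sign to the P-glycoprotein genes. Abcc4, which exports cyclic nucleotides and nucleoside drugs, read 9.11 on the Tet1/Tet2 KD + PRDM14 array, 8.81 on the Tet1/Tet2 KD array, 8.57 on the Scramble + PRDM14 array and 9.33 on the Scramble array. Its difference with PRDM14 was −0.76 in scramble and 0.30 in knockdown cells, and the difference of these, 1.06, passed 2-fold. Of all genes, 0.979% did so in that direction and 2.27% in either. Abcc1, which exports glutathione conjugates, read 7.44, 6.998, 6.83 and 7.21 in the same order of arrays, with differences of −0.39 and 0.44, although a second probe set gave 0.01 and −0.05. The medians of the 5 were −0.08 and 0.11 in these comparisons.

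Transporters of lipids and organelles mostly differed little. Abcd3, the peroxisomal importer of fatty acyl-CoA, read 8.40 on the Tet1/Tet2 KD + PRDM14 array, 8.16 on the Tet1/Tet2 KD array, 8.44 on the Scramble + PRDM14 array and 7.62 on the Scramble array. It had the largest lipid transporter difference with PRDM14 in scramble cells, 0.82. The sterol exporter Abcg1 differed by −0.51 in scramble cells and, between the PRDM14 arrays, by 0.27 in the knockdown. Among 5 organelle transporters, Abcb6, Abcb9 and Abcb10 had the largest differences, at most 0.25 in any pairwise comparison. The 4 soluble members Abce1, Abcf1, Abcf2 and Abcf3, which act in translation, differed by at most 0.20.

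**Figure D4:**
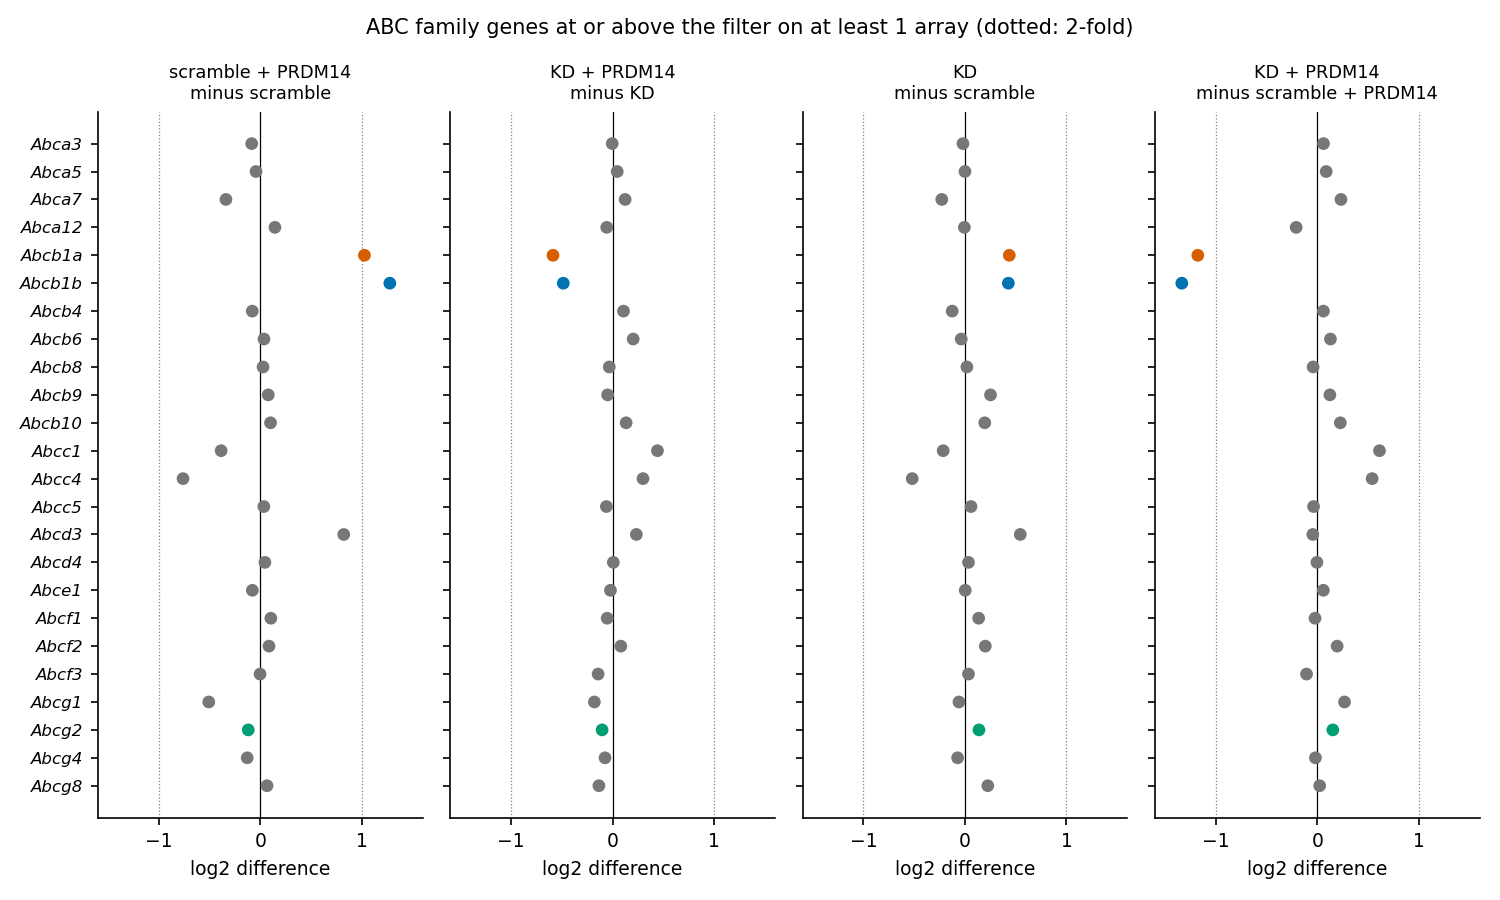
Log2 differences (x axis) of the ABC family genes at or above the filter on at least 1 array (rows), in 4 pairwise comparisons of 1 array each, with dotted lines at 2-fold and the efflux pumps in colour. Only the points of Abcb1a and Abcb1b lie beyond 2-fold, to the right with PRDM14 in scramble cells (1.03 and 1.28) and to the left for the knockdown with PRDM14 (−1.18 and −1.34).

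Known regulators of efflux pump genes were measured as well. The xenobiotic receptor genes Nr1i2 and Nr1i3, singled out after their values were seen, were below the filter on all arrays. Of 14 regulators tested with PRDM14 in scramble cells none was called, where 2.09% of all genes were called in either direction, and the median was 0.06. Epas1, which encodes the hypoxia factor HIF-2α, read 7.49 on the Tet1/Tet2 KD + PRDM14 array, 7.68 on the Tet1/Tet2 KD array, 8.35 on the Scramble + PRDM14 array and 7.56 on the Scramble array. It differed by 0.78 for PRDM14 in scramble and −0.86 for the knockdown with PRDM14. Its second probe set, below the filter on all arrays, gave 0.13 and −0.16. Nfe2l2 encodes the oxidative stress factor NRF2, and its PRDM14 differences were 0.73 (knockdown cells) and 0.07 (scramble cells). Its knockdown differences were −0.41 without PRDM14 and 0.24 with it. The part of these regulators in the pump levels was not tested.

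Enzymes that modify drugs went both ways. Of 10 tested with PRDM14 in scramble cells, the quinone reductase gene Nqo1 was called higher (1.31) and the glutathione transferase gene Gstm5 lower (−1.01), where 1.09% of all genes were called higher and 1.00% lower. Nqo1 read 6.30 on the Tet1/Tet2 KD + PRDM14 array, 6.70 on the Tet1/Tet2 KD array, 7.12 on the Scramble + PRDM14 array and 5.81 on the Scramble array, and like the P-glycoprotein genes it was highest on the Scramble + PRDM14 array. Its PRDM14 difference in knockdown cells was −0.40. Gstm5 read 6.74, 6.64, 5.74 and 6.75 in the same order of arrays. Gstp1, another glutathione transferase gene, read 10.03, 10.30, 8.84 and 9.71. Genes of the Gstm family are close in sequence, and signal shared between them was not tested. Both were lowest on the Scramble + PRDM14 array, and the knockdown with PRDM14 had them 1.00 and 1.19 higher. In that comparison 2 of 11 enzymes were called higher, where 0.630% of all genes were.

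Of 6 drug carriers of the solute carrier families that reached the filter in scramble cells none was called, where 2.09% of all genes were, and the median was −0.22. The peptide and antibiotic carrier Slc15a2 differed by −0.78 with PRDM14 in scramble cells on its brightest probe set. It differed by 0.14 on a probe set below the filter on all arrays and by −0.0031 on another, near the filter. The organic cation exporter Slc47a1 was at −0.85 for the knockdown without PRDM14. Haem and porphyrin genes, of interest because Abcg2 exports porphyrins, had 11 members above the filter and none called in any comparison, where 0.630% to 2.27% of all genes were called. Hmox1, the inducible haem oxygenase, differed by 0.77 with PRDM14 in scramble cells and by −0.45 for the knockdown with PRDM14. Alad, an enzyme of porphyrin synthesis, differed by −0.44 with PRDM14 in knockdown cells on its brighter probe set and by 0.0076 on the other, and the haem oxygenase gene Hmox2 by 0.67 for the knockdown without PRDM14. Genes for membrane anchors and kinases of the pumps had 5 members above the filter and none called, against the same shares of all genes. Counts of 0 in lists this small are near the background. Ezr (ezrin) differed by 0.81 with PRDM14 in knockdown cells, and Slc9a3r1, its scaffold partner, by 0.91 for the knockdown without PRDM14 on its brightest probe set but by 0.12 on its dimmest.

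**Figure D5:**
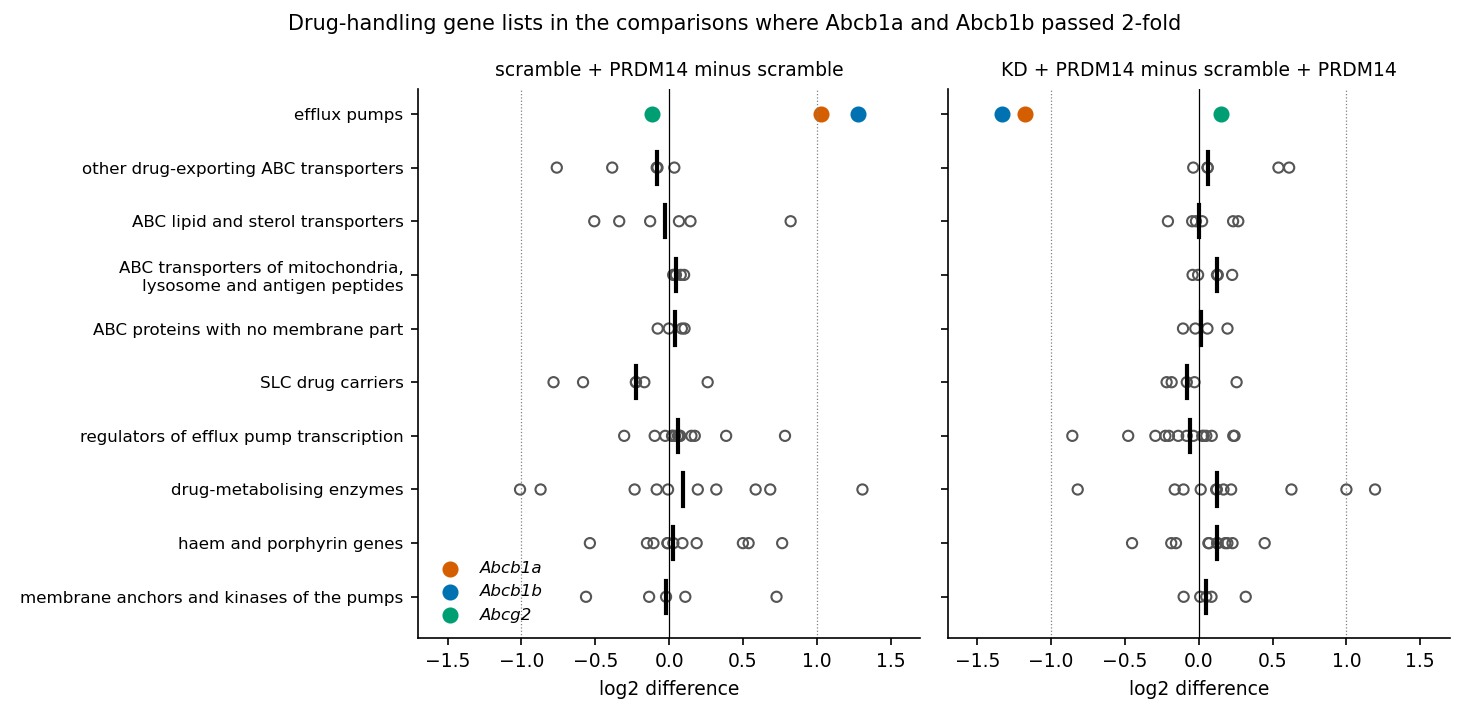
Log2 differences (x axis) of the members of 9 drug-handling gene lists (rows, open circles, vertical bars the median of each list) and of the pumps (top row, in colour), with PRDM14 in scramble cells on the left and for the knockdown with PRDM14 on the right, 1 array per condition; dotted lines mark 2-fold. On the left, Abcb1a and Abcb1b lie at 1.03 and 1.28 and the list members Nqo1 and Gstm5 at 1.31 and −1.01, while list medians lie between −0.22 and 0.09.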

How the data were processed

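Total RNA of 4 cultures was labelled by in vitro transcription (GeneChip 3′ IVT Express, per the labels' protocols) and put on 1 array per condition. The authors deposited log2 signals per probe set on nearly one distribution, with quartiles within 0.016 between arrays. Log base 2 is an inference from values between 2.78 and 13.20. The software was Affymetrix Expression Console, per the submitters' processing notes. Its version, summary and background steps were not given in the sources used here.

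By the platform annotation, 28898 probe sets had 1 gene, 551 had several, 15588 had none, and 104 were array controls. Entrez identifiers of 28689 were found in the RefSeq gene table (GRCm38.p6), and 0 symbols changed. Where a gene had several probe sets, the one with the highest mean over the arrays was used. A call was a difference of at least 2-fold with the higher array at or above 5.40, which is a size rule and no test. No model was fitted, since each condition had 1 array.

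Members and gene lists were chosen with earlier results of these data known. Named genes were the members' probe sets, list members called or with the largest difference in a comparison, the 2 nearest genes on either side of each locus, and the 3 nearest in pattern. Promoter windows came from RefSeq. Alternatives were other fold thresholds, no filter, the mean of probe sets, values raised to the filter and equal array medians. Scripts ran in Python 3.11.15 with pandas 2.3.3, numpy 2.4.6 and matplotlib 3.10.9.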

Additional observations from a re-analysis of the deposited data

Results flagged for a closer look

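The PRDM14 difference had opposite signs in the 2 backgrounds on 3 of the 5 pump probe sets, positive in scramble and negative in knockdown cells. The knockdown difference minus the scramble difference was −1.61 for Abcb1a probe set 1419759, −2.29 for Abcb1a probe set 1419758 and −1.76 for Abcb1b probe set 1418872. Each sign rests on 1 array against 1 array, so the difference between backgrounds was not tested. Both Abcb1a probe sets share a source sequence, and cross-binding between Abcb1a and Abcb1b was not tested.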

How the results depend on the processing

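Raising values below the filter to it could not change the 15 pump differences, since every pump probe set lay above the filter on every array. Setting array medians equal moved none by more than the pooled SD between probe sets. The medians lay between 5.09 and 5.11 beforehand, so that setting could move little. Averaging all probe sets of a gene, Abcb1a was at −0.79 (PRDM14 in knockdown), −1.35 (knockdown with PRDM14) and −1.95 (difference of the PRDM14 differences). By that mean Abcb1b was at 0.66 (PRDM14 in scramble), −0.23, −0.66 and −0.88, so none of its values stayed past 2-fold. The dimmer probe set alone, chosen after the data were seen, gave 1.30, −0.99, 0.77, −1.52 and −2.29 for Abcb1a in the order PRDM14 in scramble, PRDM14 in knockdown, knockdown without and with PRDM14, and difference of differences. For Abcb1b it gave 0.034, 0.034, 0.015, 0.015 and 0.00, so none of the Abcb1b calls held on this flat probe set. The cause was not tested.

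At 1.5-fold, genes higher and lower numbered 444 and 405 with PRDM14 in scramble, 151 and 139 with PRDM14 in knockdown, 303 and 224 for the knockdown without PRDM14, 247 and 201 with it, and 460 and 497 for the difference of differences, against 113 and 104, 37 and 28, 64 and 46, 65 and 49, and 103 and 136 at 2-fold. At 3-fold they numbered 34 and 18, 8 and 5, 11 and 10, 8 and 4, and 16 and 33. With the mean of probe sets, 23 genes were higher with PRDM14 in knockdown, 39 for the knockdown with PRDM14 and 61 for the difference of differences. Other counts stayed within 1.5 times. No paired analysis was possible because each condition had 1 array and no replicate numbers. With 1 array each, no replicate could be left out, and the Scramble array cannot be separated from any value that starts from it.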

Other observations

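On the flat Abcb1b probe set 1446701 the PRDM14 difference was the same in both backgrounds, 0.034, to within 1.5e-06. Such equality was found in 137 of 45141 probe sets, and its source in the authors' summary step was not tested.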
